A study of Mus musculus with 2 samples.

Results

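The Zfp genes of the mouse encode zinc finger proteins, and 148 of them passed the count minimum in the nuclear RNA of macrophages. They were selected on their symbol and on their level: protein-coding genes named Zfp followed by digits only, without Zfp36, with an estimated count of 100 or more in both libraries. Of the 364 protein-coding genes with such a symbol, 216 did not reach that minimum. In all, 7841 protein-coding genes passed the same minimum, the 148 Zfp genes included, among 55536 annotated genes.

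Both libraries hold ribosome-depleted total RNA from the nuclear fraction, which the labels also call nucleoplasmic, of bone marrow-derived macrophages, primary cells grown from the marrow of C57BL/6J mice. The cells had been given 100 ng/ml lipid A (the lipid anchor of bacterial lipopolysaccharide, an agonist of Toll-like receptor 4) for 12 h, were then left without it for 12 h, and received 100 ng/ml lipid A again for 50 min. The RNA input was 500 ng for replicate 1 and 1 µg for replicate 2. The labels number them as biological replicates but name the same donor entry for both, and give neither age nor sex; this is 1 condition, with no unstimulated or once-stimulated cells analysed here, so no level below is a response to lipid A.

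Most zinc finger proteins of this kind carry arrays of C2H2 fingers, in which a pair of cysteines and a pair of histidines hold a zinc ion and the residues between them read DNA bases. Many also carry a KRAB box near the amino end. The KRAB A box recruits TRIM28 (KAP1), which brings the histone methyltransferase SETDB1, heterochromatin protein 1 and deacetylases, and such proteins are best known for silencing retroelements and for keeping imprints. Other Zfp genes are numbered only by convention: they encode activators, chromatin cofactors, RNA-binding proteins and ubiquitin ligases.

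The KRAB box was looked for in the protein translated from the longest coding transcript of each gene in the GENCODE M21 annotation. The pattern has a pair of elements, one that ends in 2 acidic or amide residues and a tryptophan, and one of leucine, an aromatic residue, a valine or alanine and a methionine, at most 40 residues further on. Both elements were found in 42 members, 1 element in 23 and neither in 83. A missing match says only that these residues are not in that protein in that form: Zfp445, whose protein is a known KRAB protein, held 1 element, and a single element is short enough to occur outside KRAB boxes. The coding DNA of the KRAB A box is shown for Zfp809, a known silencer of murine retroviruses, for Zfp992, among the highest of the 42, and for Zfp52, which had the highest ratio between the libraries; the 2 elements are in capitals.
Zfp809: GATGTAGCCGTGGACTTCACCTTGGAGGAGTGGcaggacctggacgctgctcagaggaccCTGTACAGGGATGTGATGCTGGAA
Zfp992: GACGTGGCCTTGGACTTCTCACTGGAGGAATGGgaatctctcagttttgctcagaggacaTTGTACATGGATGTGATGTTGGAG
Zfp52: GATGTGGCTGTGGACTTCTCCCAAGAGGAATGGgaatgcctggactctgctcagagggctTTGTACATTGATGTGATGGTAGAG
Over these 84 bases Zfp809 and Zfp992 were identical at 61, Zfp809 and Zfp52 at 64, and Zfp992 and Zfp52 at 66.

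Each finger was found as a pair of cysteines 2 to 4 residues apart, a loop of 12 residues and a pair of histidines 3 to 5 residues apart. The members had a median of 9.5 fingers and 1509 in all. Zfp142 held 36 fingers, Zfp619 held 33 and Zfp236 held 30. None was found in Zfp330, Zfp703 and Zfp839. Members with both KRAB elements had a median of 12 fingers, and members with neither had 7. The last finger of a few members shows how alike some family genes are, with the codons of the zinc-binding residues in capitals.
Zfp991: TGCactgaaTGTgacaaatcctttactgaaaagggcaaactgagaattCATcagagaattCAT
Zfp992: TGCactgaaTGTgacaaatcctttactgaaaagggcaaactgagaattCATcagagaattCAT
Zfp993: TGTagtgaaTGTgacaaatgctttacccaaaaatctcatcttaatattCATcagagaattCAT
Zfp263: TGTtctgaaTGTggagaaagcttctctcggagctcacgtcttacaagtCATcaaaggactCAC
Zfp991 and Zfp992, both on chromosome 4, had the same 63 bases here. Zfp993, which lies between them, was identical to them at 49 of the 63. Zfp263, on chromosome 16, was identical to Zfp991 at 36. Reads from such repeats can fit several genes, which is taken up with the levels of these genes.

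Levels are given as TPM from the gene-level tables, a share of all transcripts corrected for their length. Since they chose the members, they are described without a test. Zfp genes were mostly low among the genes past the minimum: their median mean TPM was 3.82 (3.905 in replicate 1 and 3.575 in replicate 2), against 7.855 for all 7841 protein-coding genes, so the typical member lay at the 26.31 percentile. The middle of the members, from the lower to the upper quartile, ran from 2.094 to 6.565 TPM. Above the median of all genes stood 31 of the 148, and 37 lay below the 10th percentile, 2.08 TPM. The order of the members was close between the libraries (Spearman's rho 0.957 over 148 genes of the same 2 libraries, a description). Together the members held 0.562% of the counts in replicate 1 and 0.458% in replicate 2. In RNA from a whole culture, fewer cells with a transcript and less of it per cell cannot be told apart.

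**Figure D1:**
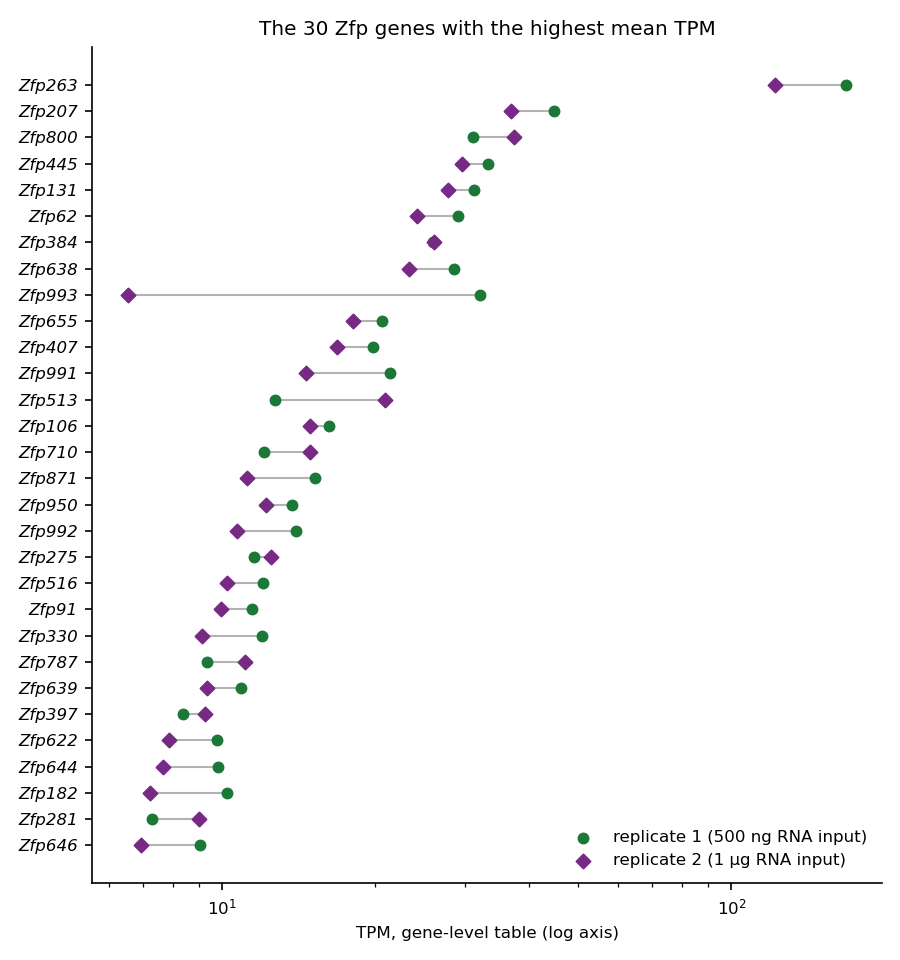
TPM (log axis) of the 30 Zfp genes with the highest mean, with a green circle for replicate 1 and a purple diamond for replicate 2, joined by a line. Zfp263 stands apart at 168.0 and 121.7 TPM, and Zfp993 has the widest gap, 32.17 and 6.55 TPM.

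Zfp263 was the highest of all members (ENSMUSG00000022529.11, mm10 chromosome 16, 3744093 to 3750790, plus strand). It had 168.0 TPM in replicate 1 and 121.7 TPM in replicate 2, from 15621 and 12784 counts. It was the 1 member above the 90th percentile of all protein-coding genes past the minimum (43.52 TPM), and by itself made up 13.49% of the members' counts in replicate 1 and 12.25% in replicate 2. Its human counterpart is known as a sequence-specific regulator with a SCAN domain. The pattern found no KRAB element in the mouse protein, and 9 fingers. As for Zfp445, a missing match does not show that the protein lacks a KRAB box.

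Zfp207, which in human cells binds microtubules and the checkpoint protein BUB3 at the spindle, followed with 44.78 TPM in replicate 1 and 36.96 TPM in replicate 2. Zfp800 had 31.09 and 37.51 TPM. Its locus is overlapped by 6530409C15Rik on the other strand, which had 257 counts in replicate 1 and 486.9 in replicate 2, while Zfp800 had 2927 and 3766.1; no source used here says how the counting used strand. Both genes were higher in replicate 2.

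Zfp445, a KRAB protein that helps to maintain imprints, had 33.26 TPM in replicate 1 and 29.57 TPM in replicate 2. Zfp131, a BTB-domain transcription regulator, had 31.21 and 27.81 TPM, and Zfp62 had 29.02 and 24.13 TPM. Zfp384, which binds runs of A or T and is known as a nuclear matrix protein, had 25.91 and 26.07 TPM. Zfp638, an RNA- and DNA-binding protein known to silence unintegrated retroviral DNA, had 28.61 and 23.28 TPM. Zfp655 had 20.62 and 18.07 TPM, and Zfp407 had 19.79 and 16.81 TPM. Of these 7 genes only Zfp384 was not lower in replicate 2.

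Members with both KRAB elements had a median of 3.34 TPM, those with 1 element 2.68 TPM, and those with neither 4.115 TPM. By the number of members above the median of all genes, 6 of 42 with both elements, 3 of 23 with 1 element and 22 of 83 with neither stood above it. The share of family genes that passed the minimum was 29.58% of 142 with both elements, 31.08% of 74 with 1 element and 56.08% of 148 with neither. On the log2(TPM + 0.1) scale the median of the 42 members lay below that of the other 106 by 0.21, a difference of -0.21. It was -0.09 in replicate 1 alone and -0.37 in replicate 2 alone, so its size was not stable between the libraries.

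**Figure D2:**
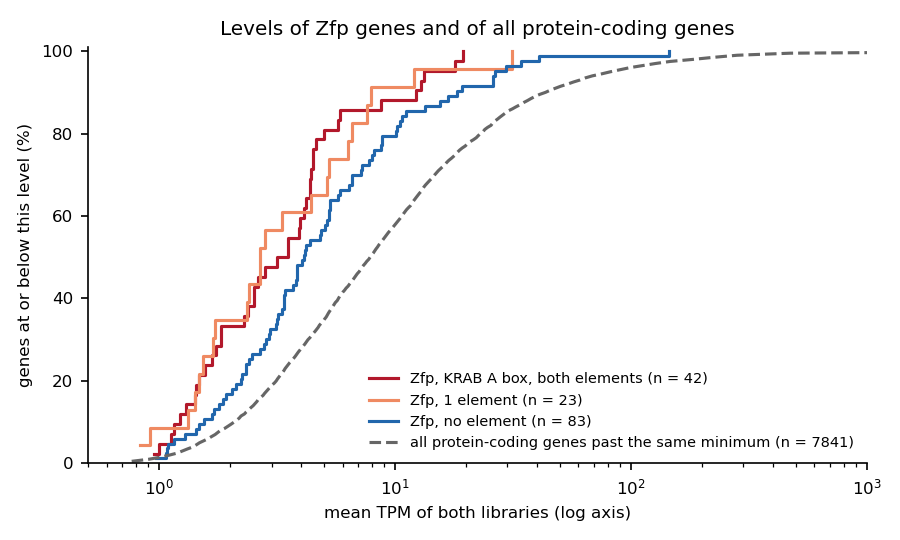
Share of genes at or below each mean TPM (log axis) for Zfp genes with both KRAB A box elements (42), with 1 element (23) and with neither (83), and for all 7841 protein-coding genes past the same minimum (dashed). The 3 Zfp curves lie left of the dashed one, with medians of 3.34, 2.68 and 4.115 TPM against 7.855 TPM.

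Among the 42, the highest by mean TPM were Zfp993, Zfp991, Zfp871, Zfp950 and Zfp992. Zfp871 had 15.24 TPM in replicate 1 and 11.21 TPM in replicate 2, and Zfp950 had 13.71 and 12.21 TPM. Zfp991 had 21.35 and 14.65 TPM, and Zfp992 had 14.01 and 10.69 TPM. These 2 and Zfp993 lie on mm10 chromosome 4 between 146449023 and 147180579. Stretches of 50 bases found also in another gene's transcripts made up 86.7% of Zfp991, 86.76% of Zfp993 and 42.98% of Zfp992, and the partners included each other and the pseudogene Znf41-ps among 35, 33 and 35 genes in that order. The coding sequences of Zfp991 and Zfp993 shared an exact run of 512 bases, and those of Zfp991 and Zfp992 one of 484 bases. How their reads were split is therefore uncertain.

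Zfp993 had 32.17 TPM in replicate 1 and 6.55 TPM in replicate 2, although its counts were 369.8 and 218.8. A transcript of 387 bases had 25.79 TPM and 145.9 counts in replicate 1, and 0.8 TPM and 5.45 counts in replicate 2. The longer transcript, of 1275 bases, had 6.39 and 5.75 TPM. The gap between the libraries in TPM lay in the short transcript.

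Sharing of this extent was rare. No stretch of 50 bases was shared in 73 of the 148, and more than 40% of the sequence was shared in 9: Zfp966 (89.46%), Zfp973 (88.4%), Zfp993, Zfp991, Zfp932 (55.51%), Zfp984 (54.56%), Zfp992, Zfp617 (40.79%) and Zfp971 (40.05%). The deposited posterior SD of the count, the spread that comes from reads that fit several genes, was 0 in both libraries for 93 members. It was over 5% of the count in 3 members in replicate 1 and in 4 in replicate 2. For Zfp973 it was 12.61% in replicate 1 and 18% in replicate 2, the values of the 9 genes that leave most room for another split.

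Some Zfp genes are known for silencing retroelements or keeping imprints. From a list of 8 such genes 4 passed the minimum, where 148 of 364 did over the whole family. Zfp445 was the only one of the 8 above the median of all genes. Zfp932, which binds endogenous retroviruses in mouse, had 5.06 TPM in replicate 1 and 4.24 TPM in replicate 2. Zfp809, which is known to silence murine leukemia virus and related elements, had 2.99 and 4.04 TPM. Zfp568, which in the mouse embryo represses a placental Igf2 promoter, had 1.9 and 0.93 TPM. The other 4 stayed under the minimum, with 61 and 33 counts for Zfp961, 6 and 2 for Zfp819, 8.18 and 0 for Zfp708, and 0 and 2 for Zfp57, an imprint keeper of germ cells and early embryos. With 0 counts, a level of up to 0.146 CPM in replicate 1 and 0.132 CPM in replicate 2 remains possible (the level of 3 counts, for counting error only).

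The genes that KRAB proteins work through were present. Of 19 partners, 18 passed the minimum. The share of all protein-coding genes that passed was not computed, so nothing particular to partners can be read from the 18. The median of the 19 was 7.235 TPM, against 7.855 TPM for all 7841 genes past the minimum. Trim28 had 15.72 TPM in replicate 1 and 11.2 TPM in replicate 2, and Setdb1 had 9.15 and 6.44 TPM. The highest were Morc3, at 44.79 and 55.35 TPM, and Chd4, the remodeler of the NuRD complex, at 50.39 and 46.18 TPM. Uhrf1, which guides DNA methylation to newly copied DNA, had 107 and 81 counts and did not pass. Of the 18, 0 differed by 2-fold or more between the libraries, as 1.44% of all 7841 genes did, so nothing particular to them can be read from the 0.

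Of 12 DNA-binding regulators on a list, 10 passed, with 4 above the median of all genes, Zfp263, Zfp131, Zfp384 and Zfp281. Over the whole family 148 of 364 passed. The list was chosen with earlier results known, so the 10 are not a result about such regulators. Zfp281, a regulator of pluripotent cells, had 7.29 TPM in replicate 1 and 9.03 TPM in replicate 2, and Zfp148, which binds GC-rich promoters, had 7.17 and 6.05 TPM. Zfp410, which activates the gene of the NuRD subunit CHD4, had 6.7 and 6.1 TPM. Zfp335, a coactivator, had 4.15 and 4.25 TPM, Zfp703, a corepressor, had 3.89 and 3.8 TPM, and Zfp260 had 3.13 and 3.62 TPM. Zfp143, a factor at promoters and chromatin loops, had 2.23 and 2.57 TPM. Zfp521 had 1 count in each library and Zfp423 had 0 in both, and both are regulators best known in progenitor cells.

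Among 10 chromatin cofactors, 7 passed and 2 stood above the median of all genes. Over the whole family 148 of 364 passed and 31 stood above it. This list too was chosen with earlier results known, so the 7 are not a result about cofactors. Zfp516, a partner of PRDM16 in brown fat, had 12.05 TPM in replicate 1 and 10.22 TPM in replicate 2, and Zfp644, which binds the G9a methyltransferase, had 9.83 and 7.67 TPM. Zfp217, of the CoREST complex, had 5.26 and 5.02 TPM. Zfp687 and Zfp592, partners of ZMYND8 in human cells, had 4.91 and 4.7 TPM and 2.73 and 2.98 TPM. Zfp609, which binds the cohesin loader NIPBL, had 2.55 and 1.89 TPM, and Zfp608 had 1.04 and 0.91 TPM. Zfp827, Zfp462 and Zfp711 did not pass, with 26 and 15, 8 and 19, and 0 and 0 counts.

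A list of RNA- or ribosome-linked genes held 9, all of them members, with a median of 6.61 TPM. It was chosen with earlier results known, so that all 9 passed is not a result about such genes. Over the whole family 148 of 364 passed. Zfp106, which binds RNA repeats in neurons, had 16.24 TPM in replicate 1 and 14.92 TPM in replicate 2. Zfp622, which acts on the large ribosomal subunit, had 9.78 and 7.87 TPM. Zfp318, a regulator of IgM and IgD splicing in B cells, had 8.02 and 5.2 TPM, and Zfp326, a subunit of a complex that links splicing to elongation in human cells, had 6.84 and 4.84 TPM. Zfp830 had 7.09 and 4.41 TPM. Zfp598, the ubiquitin ligase of collided ribosomes, had 3.69 and 4.54 TPM, and Zfp346, which binds double-stranded RNA, had 3.34 and 3.07 TPM. Zfp598 alone of the 9 was higher in replicate 2 by TPM.

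Of 6 Zfp genes linked to immune cells, 4 passed, where 148 of 364 did over the whole family. With a list chosen when earlier results were known, the 4 are not a result about such genes. Zfp91, a ubiquitin ligase of the noncanonical NF-kB pathway, had 11.45 TPM in replicate 1 and 9.97 TPM in replicate 2, and the others were Zfp281, Zfp148 and Zfp318. Zfp341 had 15 and 22 counts and Zfp366 had 12 and 9, both far under the minimum. All 8 macrophage marker genes passed the minimum, from Lyz2 at 1031.6 and 988.5 TPM to Itgam at 40.9 and 44.3 TPM, and they summed to 3115.3 TPM in replicate 1 and 3487.5 TPM in replicate 2. Fcgr1 had 47.63 TPM in replicate 1 and 117.5 TPM in replicate 2, Cd68 had 106.0 and 177.1 TPM, and Ctss had 564 and 825.5 TPM. Besides these 3, Itgam, Adgre1 (449.4 and 489.9 TPM) and Mpeg1 (629.8 and 651.5 TPM) also stood higher in replicate 2. Lyz2 and Csf1r (245.9 and 193.2 TPM) stood higher in replicate 1. The part of these differences in the ratios of the Zfp genes was not tested. The summed markers of B, T, erythroid, neutrophil and fibroblast cells were at most 0.22 TPM in either library. The 3 endothelial markers summed to 6.01 TPM in replicate 1 and 14.25 TPM in replicate 2, of which Kdr made up 5.1 and 13.15 TPM.

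The minimum of 100 counts cut through a dense part of the family. Just inside, Zfp386 had 113 and 100 counts, Zfp382 had 104 and 112, Zfp65 had 104 and 121, Zfp40 had 183 and 106 and Zfp758 had 130 and 106. Just outside, Zfp28 had 145 and 99 counts, Zfp949 had 98 and 157, Zfp970 had 127.7 and 97.28, Zfp251 had 94 and 97 and Zfp574 had 96 and 92. Of the 216 family genes below the minimum, 121 had 10 or more counts in both libraries, 95 had fewer than 10 in at least 1 library, and 27 were at 0 in both.

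Zfp genes are known to lie in tandem clusters that arose by duplication. Counting only genes with a Zfp symbol, and joining starts no more than 250 kb apart, 189 of the 364 family genes lay in 30 clusters of 3 or more. Members made up 33.86% of the genes inside clusters and 48% of the 175 outside. Inside clusters lay 31 of the 42 members with both KRAB elements, 13 of the 23 with 1 element and 20 of the 83 with neither. The members' median was 2.68 TPM inside and 4.728 TPM outside, and the same order was seen within each class, with 2.825 TPM inside and 4.375 TPM outside for both elements, 2.415 and 5.755 TPM for 1 element, and 2.857 and 5.065 TPM for neither.

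The cluster with most members was on mm10 chromosome 13, from 67038596 to 67827002, with 7 of its 19 family genes past the minimum. By mean TPM they ran from Zfp429 (4.28 TPM in replicate 1 and 3.55 TPM in replicate 2) and Zfp738 (2.32 and 2.73 TPM) through Zfp456 (1.53 and 1.6 TPM), Zfp595 (1.49 and 1.16 TPM) and Zfp458 (1.15 and 0.86 TPM) to Zfp65 (0.88 and 1.03 TPM) and Zfp953 (1.06 and 0.78 TPM). All 7 held at least 1 KRAB element and all were under the median of all genes. Most members in clusters held an element (20 of the 64 held neither), and only 31 of the 148 members stood above that median. Nothing particular to this cluster can therefore be read from the 7. By chromosome, chromosome 7 had the most family genes, 88, of which 28 were members, followed by chromosome 17 with 17 of 41 and chromosome 13 with 13 of 31. Chromosome 10 had 5 family genes and 0 members, and on chromosomes 12 and 19 every family gene passed, 4 of 4 and 2 of 2.

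**Figure D3:**
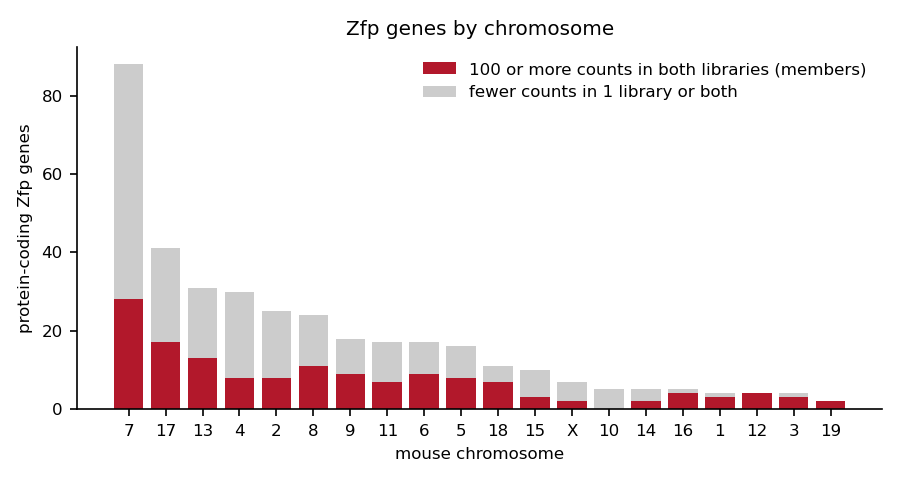
Number of protein-coding Zfp genes per mouse chromosome, ordered by that number, with the members in red below and the genes under the minimum in grey above. Chromosome 7 has 28 members of 88 genes, and chromosome 10 has 0 of 5.

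The 2 libraries were compared by the log2 ratio of TMM-scaled counts, replicate 1 over replicate 2, with 0.5 added to each count; its 95% interval is exact binomial and covers counting error only. With 1 library on each side there is no test. The members were higher in replicate 1 more often than genes at large: 107 of 148 had a ratio above 0, 72.3%, against 54.7% of all 7841, and their median was 0.19, against 0.04. The difference of the medians, 0.16, was the same in every scaling of these counts, which shifts all genes alike, and it was 0.11 in the index-based table. By a difference of 2-fold or more in either direction 1 member was called (1.44% of all genes were). Higher in replicate 1 by that measure were 0 members (0.344% of all genes), and higher in replicate 2 was 1 (1.1%). At 1.5-fold it was 16 members (9.76%), 12 higher in replicate 1 (3.97%) and 4 higher in replicate 2 (5.79%).

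The gene past 2-fold was Zfp467, known for its part in the fate of fat and bone precursors. It had 123 counts in replicate 1 and 272 in replicate 2, a log2 ratio of -1.08 (interval -1.40 to -0.77). Scaled by library totals the ratio was -0.998, just short of 2-fold, and in the index-based table it was -0.79. Below it came Zfp72 (174 and 307 counts, -0.75), Zfp513 (846.5 and 1392.1 counts, -0.65), Zfp319 (496 and 782 counts, -0.59), Zfp276 (455.6 and 642.6 counts, -0.43) and Zfp628 (179 and 240 counts, -0.36). None of the 6 held a KRAB element, and of all 148 members 83 held none. Zfp513 overlaps Snx17 on the other strand, which had 337.4 counts in replicate 1 and 467.4 in replicate 2. Of the 148 members, 80 were overlapped by another gene, 61 on the other strand and 37 on the same strand, some on both. The share over all genes was not computed, so nothing particular to the members can be read from these counts. Not all neighbours moved with the member. Gm26624, on the same strand as Zfp991, had 536 counts in replicate 1 and 564 in replicate 2. Zfp991 had 1837.4 and 1313.1. The part of shared reads in these ratios was not tested.

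At the other end Zfp52 had 331 counts in replicate 1 and 176 in replicate 2, a log2 ratio of 0.98 (interval 0.71 to 1.25). By library totals it was 1.05, past 2-fold. Next came Zfp40 (183 and 106 counts, 0.85), Zfp993 (369.8 and 218.8 counts, 0.82), Zfp948 (274 and 166 counts, 0.79), Zfp715 (637 and 394 counts, 0.76) and Zfp90 (235.3 and 151.1 counts, 0.70). All 6 held 1 or both KRAB elements, and of all 148 members 65 did. KRAB class and GC content went together, as given below, so the 2 cannot be told apart in these 6. Zfp90 had a ratio of 0.01 in the index-based table, so its difference was not seen in both tables, and the other 5 ran from 0.59 to 0.91 there.

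GC content moved with this ratio. Over all 7841 genes Spearman's rho between them was -0.40, and over the 148 members it was -0.34, given as a description of genes that share 2 libraries. Over all genes the ratio also went with the length of the longest coding transcript (rho 0.26) and with mean TPM (-0.21). Over the members these 2 values were -0.03 and 0.06. The parts of GC content, length and level in the members' higher ratio were not tested. The members' transcripts were poorer in GC than those of genes at large, with a median of 45.2% against 49.71%. Below 45% GC the members' median ratio was 0.27 (74 genes), against 0.20 for all genes. From 45 to 55% it was 0.22 (48 genes), against 0.05, and at 55% or more it was -0.10 (26 genes), against -0.18. Of these 26 genes, 25 held neither KRAB element. The members with both KRAB elements had a median ratio of 0.27 and those with neither 0.12, and their median GC contents were 40.07% and 50.2%. Below 45% GC the medians of these classes were 0.30 (35 genes) and 0.18 (25 genes), and from 45 to 55% they were -0.01 (7 genes) and 0.23 (33 genes), the other way round. RNA input differed between the same 2 libraries, so input and any difference between the cells cannot be told apart.

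**Figure D4:**
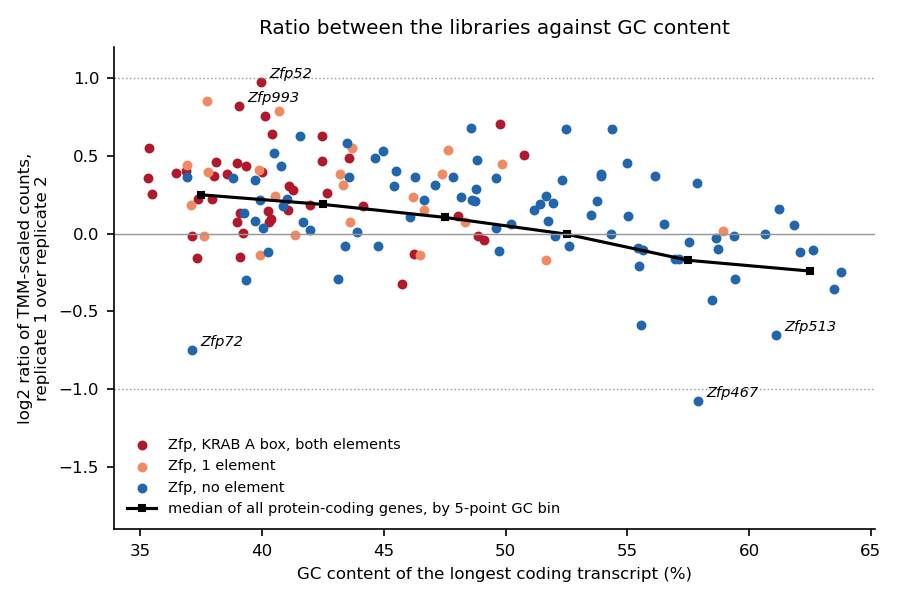
Log2 ratio of TMM-scaled counts, replicate 1 over replicate 2, against the GC content of the longest coding transcript for the 148 Zfp genes, coloured by KRAB class, with the median of all 7841 protein-coding genes in GC bins of 5 points (black). Zfp genes at 55% GC or more mostly lie below 0 (median -0.10), as the black line does, and Zfp467 is the only one past -1.

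Nuclear RNA holds transcripts that are still being spliced or are kept in the nucleus, so the type of each transcript was read from the index-based table, as its share of the gene's summed TPM, averaged over both libraries. Coding transcripts held a median of 75.45% in the members, against 68.2% in all genes; the share was 99.72% in members with both KRAB elements and 67.16% in those with neither. Members have fewer annotated transcripts (a median of 5, against 6), and those with both elements have a median of 3; the part of this in the shares was not tested. The transcript with the highest TPM was a coding one in 112 members (75.68%, against 78.93% of all genes). It was a retained-intron one in 23 (15.54%, against 11.75%) and a processed transcript in 10 (6.76%, against 6.82%). One marked for nonsense-mediated decay was highest in 3 (2.03%, against 2.44%). By this count, unlike by the median share, the coding type was slightly less frequent in members than in all genes.

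A transcript annotated with a retained intron existed for 77 of the 148 members, 52.03%, against 65.8% of all genes. Where it existed, its median share was 31.5% in members, against 27.39% in all genes, and it was 24.26%, against 21.4%, by the alignment-based values. It was over 50% in 16 of the 77 members, 20.78%, against 16.24% of all genes with such a transcript. TPM is per length, so a short retained-intron transcript gains share, and reads from unspliced RNA that match it are counted with it.

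The highest shares were in Zfp945 (91.68% in replicate 1 and 89.92% in replicate 2), Zfp398 (84.65 and 77.24%), Zfp369 (69.99 and 78%), Zfp868 (66.73 and 69.4%), Zfp330 (66.12 and 67.93%) and Zfp809 (68.49 and 61.29%). In Zfp945 the alignment-based table gave 86.68 and 89.33%, much as the index-based one did. In Zfp398 it gave 24.41 and 30.68%, in Zfp809 15.05 and 24.5%, and in Zfp868 42.19 and 29.14%. For those 3 genes the share therefore rested on which table was read. In Zfp369 it gave 64.15 and 57.96%, and in Zfp330 54.42 and 52.3%.

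In Zfp263 the transcript with most reads was a retained-intron one of 4177 bases, with 11038.4 counts in replicate 1 and 6482.6 in replicate 2 in the index-based table. Its coding transcripts traded places between the libraries: that of 2452 bases had 5226.3 and 2418.3 counts, and that of 3241 bases had 3257.4 and 4715 counts. The retained-intron share of Zfp263 was 36.74% in replicate 1 and 34.61% in replicate 2. In Zfp638 it was higher, and its mean over both libraries was 60.09%, spread over several annotated transcripts.

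**Figure D5:**
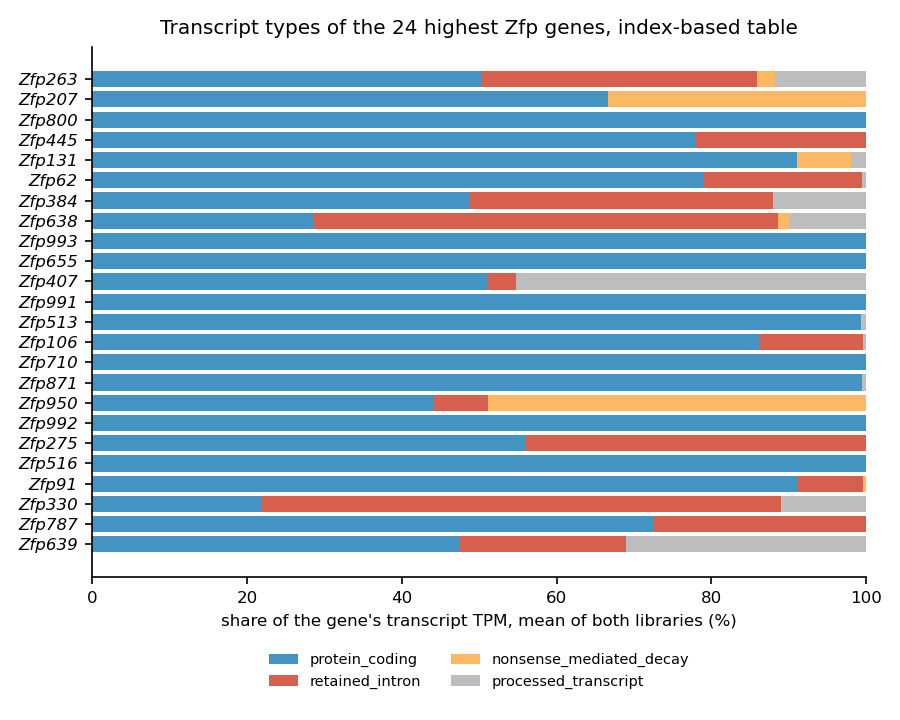
Share of each gene's transcript TPM by annotated type, as the mean of both libraries in the index-based table, for the 24 Zfp genes with the highest mean TPM. Zfp330 and Zfp638 have the largest retained-intron shares here (67.03 and 60.09%), while Zfp800, Zfp991, Zfp992 and Zfp993, among others, are at 100% coding.

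The gene-level and the index-based tables ranked the members alike (Spearman's rho 0.892 in replicate 1 and 0.911 in replicate 2), but some genes differed widely. Zfp180 had 232 counts in replicate 1 and 262 in replicate 2 in the gene-level table, and 1389 and 1080 in the index-based one. Of the index-based counts 1049.3 and 761 went to a transcript of 827 bases marked for nonsense-mediated decay, which had 3.14 and 1.49 counts in the alignment-based table. Zfp738 had 466.7 and 463.9 counts against 2153.7 and 2080.1 in the index-based table, Zfp398 had 241 and 158 against 1331.7 and 559.2, and Zfp444 had 118 and 125 against 418.2 and 317.6. Zfp369 and Zfp809 were also higher there, with 1520.7 and 1115.2 and with 374 and 361 counts. Index-based TPM was not compared between the libraries, since for the typical member it was 0.686 of the gene-level TPM in replicate 1 and 0.332 in replicate 2, and for the typical gene of all 0.671 and 0.317.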

How the data were processed

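Per the deposited README text, the authors derived the gene-level and 1 transcript table from transcriptome alignments and the other, here called index-based, from the reads and a transcript index, all on mm10 with GENCODE M21; no source used here names the tools. The deposited values used were expected counts (estimated counts, not whole numbers), TPM, and FPKM as an alternative, per the file headers, with the posterior SD of each count. Replicates were kept separate. Total counts were 20612078 in replicate 1 and 22772081 in replicate 2; intervals cover counting error only.

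Counts were rounded and scaled with edgeR 4.0.16 (TMM, on genes whose 2 counts sum to at least 10); DESeq2 1.42.0 size factors were an alternative. The scaling and the 2-fold calls were also run on simulated counts. These held counting error only, with no GC or input effect, so they say nothing about such differences between the real libraries. No test between conditions is possible with 1 condition, so p-values are absent; the labels do not say that the 2 libraries came from separate mice. Proteins were translated from the longest coding transcript of the GENCODE M21 reference, since no protein table was at hand, in place of the RefSeq proteins planned; positions are 1-based on mm10. Named genes were the 12 members with the highest mean TPM, 5 on each side of the minimum, the 6 largest ratios in each direction, all genes of the lists, the 3 with most and fewest fingers, the 6 highest retained-intron shares, the 6 largest differences between tables, the cluster with most members, and, picked after their values were seen, the highest of the KRAB class and those of shared sequence. Members and lists were chosen with earlier results of these data known.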

Additional observations from a re-analysis of the deposited data

How the results depend on the processing

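Of 39 alternative settings for 10 results, 23 left the value within a bound and 16 moved it further. The bound was the SD of the 2 libraries' values, the counting interval or, for a number of genes, 1.5 times. Settings that leave out 1 library use the same values that set this SD, so they are no independent check. The number of members was 192 with a minimum of 50 counts, 100 with 200, and 198 with the minimum read from the index-based table. The members' median level (3.82 TPM) was 5.938 in FPKM, 2.056 TPM in the index-based table and 17.79 TPM when rescaled over protein-coding genes alone; leaving out either library gave 3.575 to 3.905 TPM. Its percentile (26.31) was 51.23 among protein-coding genes with 10 counts over both libraries, as that pool holds many lower genes. The median log2 ratio (0.19) was 0.27 by library totals, 0.17 with TMM over protein-coding genes and 0.086 in the index-based table, always above 0. Past 2-fold stood 1 member, 0 in the index-based table and 16 at 1.5-fold. KRAB elements were found in 42 members, in 65 when either element was enough and in 53 by a position weight matrix. That matrix and its cutoff were built from the family proteins with both elements, so it is no independent check. The difference in level between KRAB classes (-0.21) was -0.59 when members with 1 or both elements were set against those with none, a split added after seeing the data, and ran from -0.37 to -0.09 without either library. The median retained-intron share (31.5%) was 24.26% in the alignment-based table and 31.25 to 31.3% without either library, and the median coding share (75.45%) was 85% in the alignment-based table. With gaps of 100 kb and 500 kb, also added later, 52 and 75 members lay in clusters, against 64. No paired analysis was possible because the libraries form 1 group. Depth limits the genes under 10 counts, and 2 libraries limit every spread.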
